A study of Mus musculus with 104 samples.

Results

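DNA methylation of mouse muscle was compared between perinatal libraries, labelled E18 (embryonic day 18, given as E18.5 in the study's methods) and P1 (postnatal day 1), and weaning-age libraries, from P15 and P20. The perinatal side held 9 libraries (4 at E18 and 5 at P1) and the weaning side held 8 (4 at P15 and 4 at P20), so that 17 of the 104 samples of the series entered the comparison. They were chosen by the tissue and age in their titles, and no measured value was used. All mice were C57BL/6 by their labels (C57BL/6J in the study's methods), with no treatment stated. DNA came from bulk muscle, and the muscle sampled and the sex of the mice are not given in the sources used here. Another 7 muscle libraries, 3 at P5 and 4 at P10, stood between the sides and were used only to describe the course of the changes. Liver and heart libraries of the same experiment served for comparison.

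DNA methylation is the addition of a methyl group to cytosine, in mammals mostly at CpG dinucleotides, where a cytosine is followed by a guanine. Methylation at promoters and enhancers usually goes with low activity of the gene, whereas methylation inside transcribed genes is common. Skeletal muscle matures between birth and weaning: embryonic and neonatal myosins give way to adult forms, fibres become fast or slow, oxidative metabolism is built up and each fibre keeps a single nerve ending. Reduced representation bisulfite sequencing (RRBS) reads fragments cut at CCGG sites after unmethylated cytosines have been converted, so it sees mainly CpG-rich parts of the genome. The methylation level of a CpG in a library is the percentage of reads that were methylated there.

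The muscle table held 46085 CpGs, and every one of them had at least 4 values on each side. Of these, 477 (1.04%) were called as different between perinatal and weaning muscle, which required a limma p, adjusted by the Benjamini-Hochberg method, no higher than 0.1 and means more than 5 percentage points apart. The count fell to 35 on logit values. It fell to 21 with the replicate number as a block, where E18 replicates 9, 14 and 15 each stood alone and added nothing to the contrast. For E18 against P20 alone it was 0, with 3718 CpGs at an unadjusted limma p under 0.05. Methylation was higher at weaning at 211 CpGs (0.458% of those tested) and lower at 266 (0.577%). The median gain was 27.7 points, from a median of 19.4% in perinatal muscle to 49.8% at weaning. The CpGs that lost methylation fell by 30.7 points at the median, from a median of 63.2% to 27.6%, while the median difference over all CpGs tested was 0.21 points. The smallest called difference was 11.4 points, and 227 called CpGs moved by more than 30 points. The values of the sides did not overlap at 125 of the called CpGs (26.2%), against 0.321% of all CpGs tested. Muscle is a mixture of cells, and a change of methylation within a cell type and a change in the share of cell types cannot be told apart in these libraries.

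**Figure D1:**
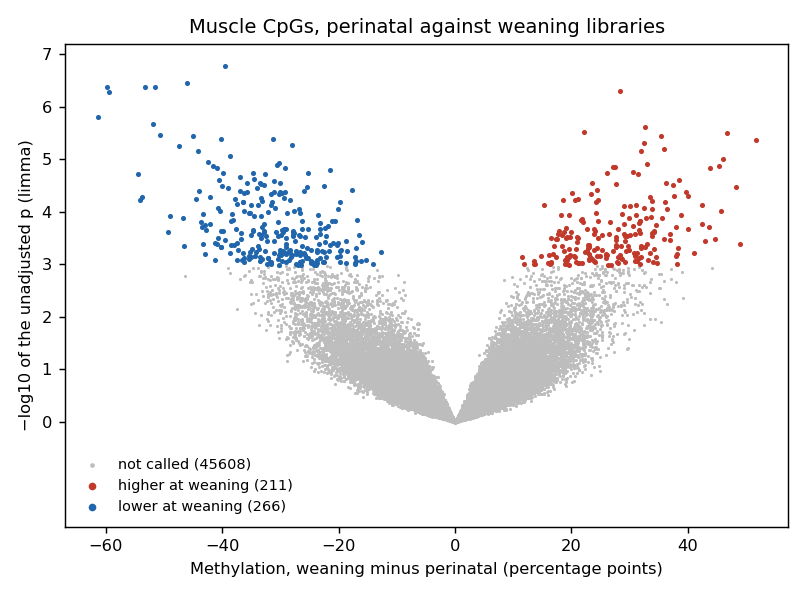
Each point is 1 of the 46085 muscle CpGs, with the weaning minus perinatal difference in percentage points on the x axis and −log10 of the unadjusted limma p on the y axis. The 211 CpGs called as higher at weaning and the 266 called as lower stand at both flanks, with no called difference under 11.4 points.

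No difference between the sides was detected in 4 measures of whole libraries. At the 6740 CpGs with a value in all 17 libraries, mean methylation was 33.7% ± 1.84 (SD, n = 9) in perinatal and 33.9% ± 1.66 (SD, n = 8) in weaning muscle (exact permutation test, two-sided, p = 0.798, adjusted p = 0.798 over 4 measures). The share of CpGs between 20% and 80% methylated was 35.8% ± 2.21 and 37.9% ± 2.13, which did not pass the exact permutation test (p = 0.0637, adjusted p = 0.255). The share of CpGs read as exactly 0% or 100% (13.3% and 14.2%) and the share of missing values (9.53% and 14.0%) had exact permutation p of 0.769 and 0.567, and adjusted p of 0.798 for both. E18 replicate 15 and P20 replicate 2 stood apart with 51.7% and 52.7% of their values missing, against 0.0673% to 21.9% in the other 15. Without both libraries 370 CpGs were called, 322 of the 477 calls were among them, and all 477 kept their direction. The median SD between libraries at a CpG was 8.85 points on the perinatal and 10.2 points on the weaning side. Within the sides no CpG was called: 0 of 39895 (0%) between E18 and P1, with 2493 at an unadjusted limma p under 0.05, and 0 of 38071 (0%) between P15 and P20, with 2009.

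CpGs of 1 fragment share reads, so runs of at least 3 tested CpGs no more than 100 bp apart were also tested as regions. Of 4926 regions, 245 (4.97%) were called, 142 as higher at weaning (2.88%) and 103 as lower (2.09%). With the replicate block 78 were called, and with runs of at least 2 CpGs 394 of 10900 were. Gains were the larger number among regions and losses among single CpGs, but the latter order did not hold on logit values (19 gains and 16 losses), with array weights (267 and 266) or without P15 replicate 4 (178 and 172). The values of the sides did not overlap in 30 of the 245 called regions (12.2%), against 0.629% of all regions. In 129 of the called regions no single CpG was called, and no called region held CpGs called in both directions. Of the 397 groups of called CpGs within 1 kb of one another, 61 held at least 2, and in all 61 the CpGs moved in 1 direction.

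In 5 regions there were 4 CpGs called in 1 direction, the highest number among the called regions. Their sequences are given on the plus strand of mm9, because these short runs hold the most called CpGs. Capitals mark the called CpGs, and lower-case cg marks CpGs not called or not measured.
Tmem140 intron, chr6:34817428-34817498: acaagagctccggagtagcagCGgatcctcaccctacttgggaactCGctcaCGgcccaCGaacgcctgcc
St3gal2 intron, chr8:113460337-113460403: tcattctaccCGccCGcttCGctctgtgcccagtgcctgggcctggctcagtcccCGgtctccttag
Irgq coding exon, chr7:25319030-25319087: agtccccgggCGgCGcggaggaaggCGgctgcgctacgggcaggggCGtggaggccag
Cacna1a coding exon, chr8:87090086-87090136: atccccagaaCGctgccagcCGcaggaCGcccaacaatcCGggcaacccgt
Pola2 coding exon, chr19:5942348-5942413: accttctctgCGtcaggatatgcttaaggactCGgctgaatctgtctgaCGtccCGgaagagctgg

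The Tmem140 region, in an intron of a gene for a transmembrane protein, lost methylation. Perinatal libraries lay between 37.5% and 69.1% (median 59.3%) and weaning libraries between 8.89% and 29.7% (median 19.3%). The sides did not overlap, and the mean fell by 36.8 ± 4.48 points (SE, limma adjusted p = 0.000281). Of its 5 CpGs 4 were called, and the CpG at position 34817438 went from 27.5% to 17.8% without passing the test (limma adjusted p = 0.646).

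The region in an intron of St3gal2, a sialyltransferase that finishes glycan chains on lipids and proteins, showed the largest regional change. It read between 46.8% and 78.6% (median 69.9%) in 5 perinatal libraries and between 0.0% and 26.0% (median 16.2%) in 8 weaning libraries. The other 4 perinatal libraries had no value there. The sides did not overlap, and methylation fell by 53.2 ± 5.83 points (SE, limma adjusted p = 0.000281). The CpG at position 113460357 in it fell by 61.4 points, from 80.7% to 19.3%, the largest called difference of a single CpG.

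The region in a coding exon of Irgq, of the immunity-related GTPase family, was the only 1 of the 5 that gained methylation. It rose from between 35.7% and 55.1% (median 48.6%, n = 7) to between 66.5% and 73.7% (median 70.9%, n = 6), again with no overlap. The difference was 24.3 ± 3.33 points (SE, limma adjusted p = 0.00159). Of its 7 CpGs 4 were called, and the one at position 25319045 went from 41.7% to 37.3% without passing the test (limma adjusted p = 0.887). The CpG at position 25319076 in it showed the largest called gain, 51.6 points, from 38.5% to 90.2%.

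Losses also marked a coding exon of Cacna1a, the pore-forming subunit of the P/Q-type calcium channel of motor nerve terminals, and one of Pola2, a subunit of the DNA polymerase that starts replication. The Cacna1a region lay between 71.7% and 89.7% (median 84.9%) in perinatal and between 42.3% and 78.3% (median 53.6%) in weaning libraries, so that the sides overlapped. It fell by 28.6 ± 4.21 points (SE, limma adjusted p = 0.00159). The overlap came from P20 replicate 5, which read 78.3% against a median of 53.2% in the other 7. The Pola2 region fell by 47.3 ± 6.95 points (SE, limma adjusted p = 0.00197), from between 68.3% and 92.1% (median 79.6%, n = 6) to between 7.63% and 62.5% (median 29.9%, n = 8), with no overlap.

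**Figure D2:**
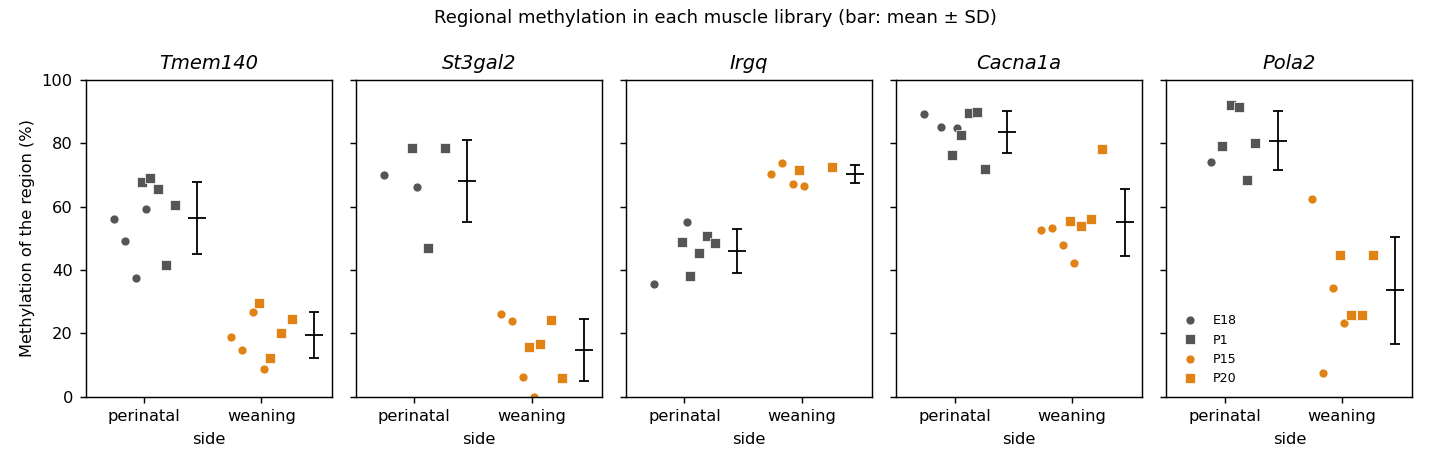
Methylation (%) of the 5 regions with the most called CpGs in each muscle library, with perinatal libraries (E18 circles, P1 squares) in grey and weaning libraries (P15 circles, P20 squares) in orange, and bars for the mean ± SD of a side. The Tmem140, St3gal2, Irgq and Pola2 sides do not overlap, and a single P20 library at 78.3% overlaps the perinatal range of Cacna1a.

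By strength of the test, chosen after the values were seen, the region with the smallest unadjusted p spanned 13 CpGs in a coding exon of Neurl1b, of the Neuralized ubiquitin ligases that act on Notch ligands. It rose from between 6.95% and 20.7% to between 25.7% and 36.7%, without overlap (20.5 ± 2.44 points, SE, limma adjusted p = 0.000281). A region in a coding exon of Dusp8, a phosphatase of MAP kinases, rose by 31.9 ± 4.05 points (limma adjusted p = 0.000383), and one in an intron of Mylk, myosin light chain kinase, fell by 33.5 ± 4.11 points (limma adjusted p = 0.000453). In Il17rd, an inhibitor of FGF signalling, an intronic region rose by 22.4 ± 2.99 points on 4 weaning libraries (limma adjusted p = 0.00159). Regions that started near 0 were among the gains. Foxo6, a forkhead factor, went from 5.44% to 20.8% (limma adjusted p = 0.00299), and an untranslated exon of Casz1, a zinc finger factor, went from 3.64% to 22.3% (limma adjusted p = 0.00318).

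Among single CpGs with a value in at least 15 libraries, 9 of the 10 largest gains are described here. Sequences are shown for the gains near Phlda1 and in Neurl3, on the plus strand of mm9 with the measured CpG in capitals, because these had the lowest perinatal means of the 9 and no overlap between sides.
Phlda1, chr10:110990846-110990907: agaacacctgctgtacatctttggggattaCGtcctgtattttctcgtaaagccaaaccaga
Neurl3, chr1:36326256-36326317: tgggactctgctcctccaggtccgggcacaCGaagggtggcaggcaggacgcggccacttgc

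The CpG 47535 bp downstream of the start of Phlda1, a pleckstrin homology-like protein, rose from between 3.92% and 29.5% (median 14.8%) to between 37.0% and 84.4% (median 70.0%). A coding exon of Neurl3, another Neuralized ubiquitin ligase, rose from between 0.0% and 25% (median 11.5%) to between 26.9% and 69.2% (median 48.5%). Neither overlapped between sides, and the gains were 46.0 ± 7.19 and 38.5 ± 6.53 points (SE, limma adjusted p = 0.0177 and 0.0229). With the replicate block neither was called (limma adjusted p = 0.167 and 0.157). On logit values the Phlda1 call was kept and the Neurl3 call was lost (limma adjusted p = 0.0666 and 0.169).

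The gain with the largest mean was less even. The CpG at chr19:5696037 in a coding exon of Map3k11, a kinase upstream of JNK, read between 10.5% and 30% (median 21.5%) in perinatal and between 10.0% and 95.7% (median 84.6%) in weaning libraries. The sides overlapped through 1 P20 library at 10.0%, and the gain was 48.9 ± 10.9 points (SE, limma adjusted p = 0.0679), called in 8 of the 17 fits that left out 1 library. The Map3k11 call was lost on logit values and with the replicate block (limma adjusted p = 0.179 and 0.381). The other 6 gained between 38.3 and 43.9 points with limma adjusted p of 0.0184 to 0.0744, and the sides overlapped at all 6. They lay 3246 bp upstream of Adamtsl1, a matrix glycoprotein, in coding exons of Trio and Arhgap23, which act on small GTPases, 43318 bp upstream of Nnmt, a nicotinamide methyltransferase, in a coding exon of Dusp8, and 54628 bp downstream of the start of Hes1, a repressor in the Notch pathway. The Hes1 gain was called in 5 of the 17 such fits, and the other 5 in all 17. None of the 6 was called on logit values (limma adjusted p of 0.115 to 0.211), and with the replicate block only those of Arhgap23 and Nnmt were (0.0586 and 0.0474).

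The 10 largest losses, among CpGs with a value in at least 15 libraries and at most 1 per kb, started from perinatal means of 53.7% to 91.5%. Sequences are shown for 4 whose sides did not overlap, in the same way as above; the CpG of Tmem140 at position 34817480, the largest of the 10, is in the region already shown.
Coro7, Dnaja3 and Vasn, chr16:4648585-4648646: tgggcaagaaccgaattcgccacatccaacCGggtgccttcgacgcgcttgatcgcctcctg
Lrrn2, chr1:134834127-134834188: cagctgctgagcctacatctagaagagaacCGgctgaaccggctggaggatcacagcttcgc
Sec14l1, chr11:116985177-116985238: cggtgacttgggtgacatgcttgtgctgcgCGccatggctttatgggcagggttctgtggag
Lama5, chr2:179920829-179920890: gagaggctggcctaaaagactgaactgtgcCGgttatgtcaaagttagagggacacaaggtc

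The Tmem140 CpG fell from between 28.0% and 84.6% (median 63.8%) to between 3.96% and 23.3% (median 11.3%), a loss of 51.5 ± 6.42 points (SE, limma adjusted p = 0.00347). Even its lowest perinatal library, P1 replicate 4, stayed above every weaning library. In a coding exon shared by the annotations of Coro7, Dnaja3 and Vasn, levels went from between 73.7% and 100.0% (median 93.4%) to between 5.56% and 58.5% (median 50%), a loss of 50.6 ± 7.23 points (SE, limma adjusted p = 0.0108). Its call was kept on logit values and lost with the replicate block (limma adjusted p = 0.0657 and 0.167). These 3 genes encode a coronin, a mitochondrial chaperone and a TGF-beta binding protein, and the CpG cannot be assigned to one of them.

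Lama5, the alpha 5 chain of basement membrane laminin, held an intronic CpG that fell from between 58.3% and 92.9% (median 74.7%) to between 0.0% and 50% (median 35.8%), by 41.6 ± 6.82 points (SE, limma adjusted p = 0.0184). Lrrn2, a leucine-rich repeat membrane protein, and Sec14l1, a lipid-binding protein, fell by 47.5 ± 7.07 and 42.5 ± 6.86 points (SE, limma adjusted p = 0.0124 and 0.0184), with no overlap between sides at either. Lama5, Lrrn2 and Sec14l1 all lost their calls on logit values (limma adjusted p of 0.104 to 0.187). With the replicate block only Sec14l1 was called (limma adjusted p = 0.0907).

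The other 5 of the 10 overlapped between sides. They were in introns of Camta1, a calmodulin-binding transcription activator, of Cradd, a death-domain adaptor, of Mbnl1 and of Nek7, a kinase, and in a coding exon of Neurod6, a neuronal basic helix-loop-helix factor, with losses of 41.2 to 49.3 points and limma adjusted p of 0.0458 to 0.0832. Nek7 was called in all 17 fits that left out 1 library, Camta1 in 15, Neurod6 in 9, Cradd in 6 and Mbnl1 in 4. None of these 5 was called on logit values (limma adjusted p of 0.12 to 0.227), and with the replicate block only Cradd was (0.0474). Mbnl1, a splicing regulator that drives the switch to adult isoforms in muscle, showed how a single library can widen a side. Perinatal libraries read between 48.0% and 92.3% (median 64.3%) and weaning libraries between 0.0% and 92.3% (median 13.6%), where P20 replicate 3 was at 92.3% and the median of the other 7 was 11.1%. The loss of 43.0 ± 10.4 points (SE, limma adjusted p = 0.0832) did not pass with an adjusted p of 0.199 in limma without the 2 libraries with most missing values.

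**Figure D3:**
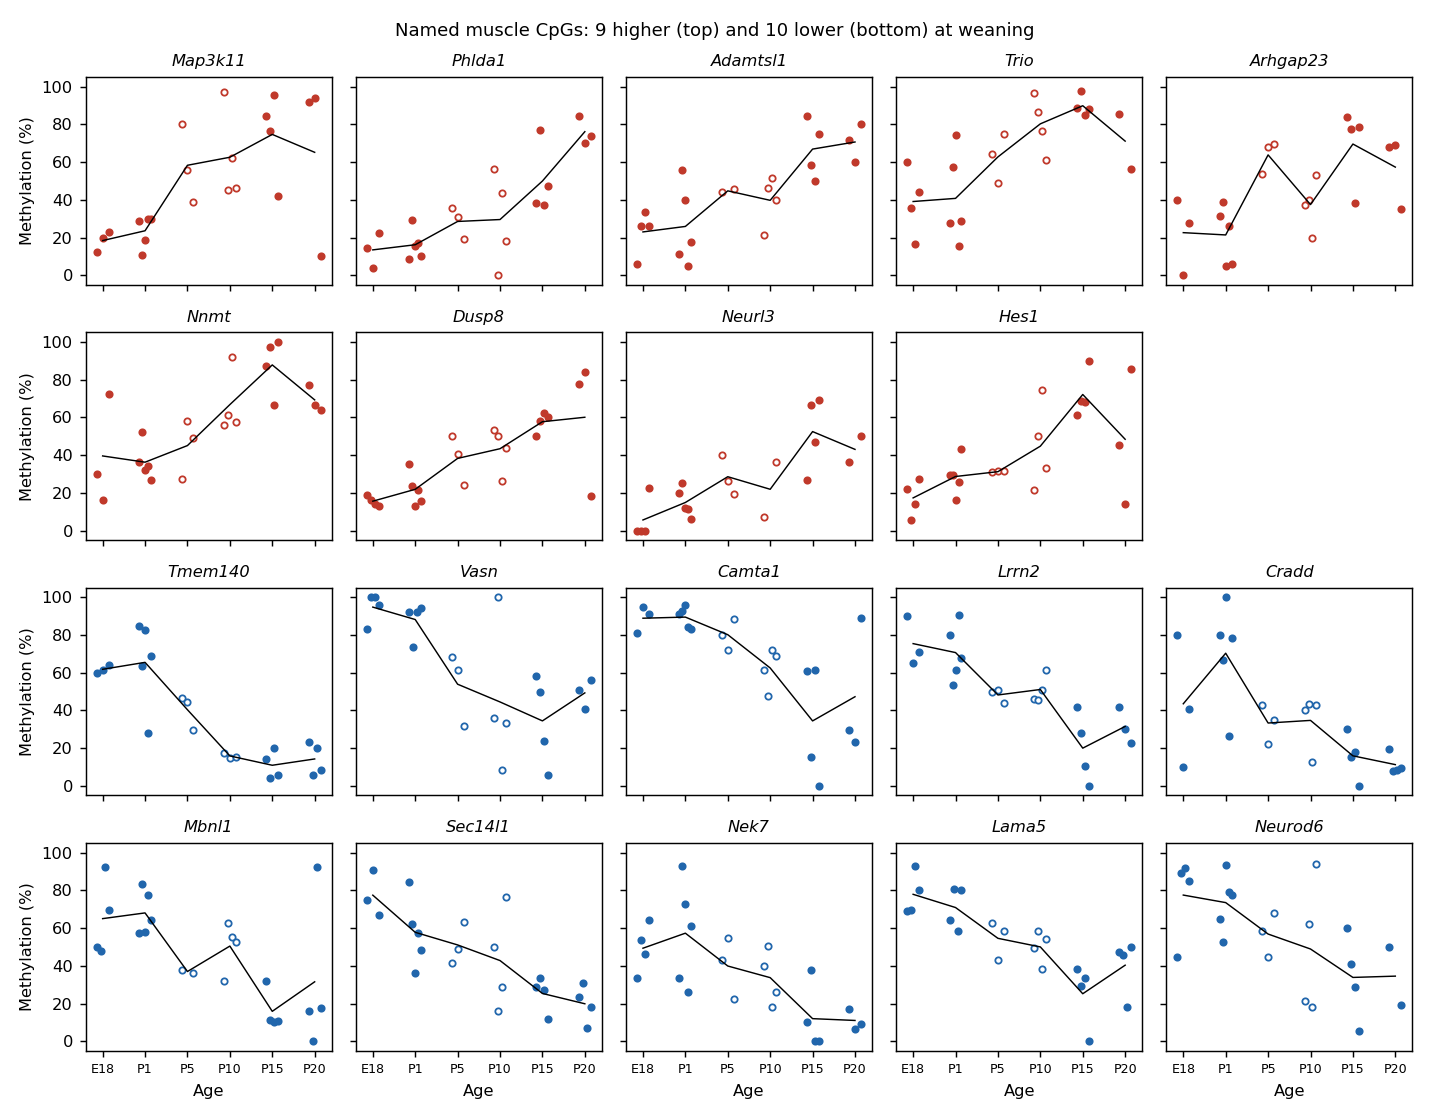
Methylation (%) of the 19 named CpGs in each of the 24 muscle libraries by age, with filled points for the ages compared, open points for P5 and P10, and a line through the age means. The top 9 panels are gains and the lower 10 are losses; the 92.3% library at P20 in Mbnl1 and the 10.0% library at P20 in Map3k11 stand away from the others of their age.

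Genes of muscle itself were then read from gene lists. CpGs inside or within 5 kb of a listed gene were counted, and a list is described by its calls and median difference beside the 1.04% called and the median of 0.21 points over all CpGs. Of all the called CpGs at listed genes, only that of Hoxc4 was called on logit values (limma adjusted p = 0.0271, others 0.133 to 0.337). None was called with the replicate block (limma adjusted p of 0.167 to 0.448). Among muscle cell type markers, 115 CpGs lay at 21 of 30 genes, and 2 were called (1.74%), both lower at weaning, with a list median of -1.55 points. They were an intronic CpG of Ldb3, which anchors the sarcomere's Z-disc, and one in a coding exon of Ttn, the spring protein titin.

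The Ldb3 CpG at chr14:35379007 lay between 50% and 73.3% (median 61.0%) in perinatal and between 0.0% and 50.7% (median 33.6%) in weaning muscle. The sides overlapped slightly, and it fell by 32.8 ± 7.05 points (SE, limma adjusted p = 0.0538). The Ttn CpG at chr2:76596929 fell by 17.2 ± 4.17 points from 95.0% to 77.9% (SE, limma adjusted p = 0.0968), with values in 5 weaning libraries, and it was called in only 2 of the 17 fits that left out 1 library.

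Of the myosin heavy chains, 3 of 8 genes had CpGs, 15 in all, and the only called one was in a coding exon of Myh7b, a slow-type myosin. It read between 23.1% and 56.5% (median 27.1%) in perinatal and between 0.0% and 14.3% (median 9.02%) in weaning muscle, without overlap, and fell by 22.4 ± 4.87 points (SE, limma adjusted p = 0.0643), called in 11 of those 17 fits. The Myh7b call was lost on logit values and with the replicate block (limma adjusted p = 0.185 and 0.199). The list median was -5.53 points. The measured CpG of Myh7b is in capitals in the mm9 plus-strand sequence below, beside that of Cpt1b, since the sides overlapped at neither.
Myh7b, chr2:155452074-155452135: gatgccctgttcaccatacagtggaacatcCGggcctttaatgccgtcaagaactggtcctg
Cpt1b, chr15:89249633-89249694: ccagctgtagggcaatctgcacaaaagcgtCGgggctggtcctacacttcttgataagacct

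Metabolic genes had 2 called among 63 CpGs at 14 of 25 genes (3.17%, list median -1.88 points). The CpG in a coding exon annotated to Cpt1b and Chkb fell from between 80% and 100.0% (median 91.7%) to between 40% and 79.4% (median 55.4%), with no overlap and a loss of 33.4 ± 6.27 points (SE, limma adjusted p = 0.0388). That call was lost on logit values and with the replicate block (limma adjusted p = 0.165 and 0.348). Cpt1b is the muscle carnitine palmitoyltransferase, which admits fatty acids to mitochondria. The CpG at chr19:7000255, in an untranslated exon of Kcnk4 and within 5 kb of Esrra, a nuclear receptor of mitochondrial genes, rose by 25.9 ± 6.27 points (SE, limma adjusted p = 0.0838) and was called in 5 of the 17 fits that left out 1 library. Of the 5 regions in this list 2 fell, neither with a called CpG, where 2.09% of all regions fell. In Eno3, the muscle enolase, a coding exon went from 93.3% to 70.3% (limma adjusted p = 0.0647), with weaning libraries between 41.6% and 100.0% that overlapped the perinatal ones, and in Esrrg, a relative of Esrra, an intron went from 57.0% to 43.4% (limma adjusted p = 0.0502).

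Among myogenic regulators, 108 CpGs at 20 of 26 genes held the Mbnl1 call alone (0.926%, list median 0.633 points). A region in Nfix, a factor of the fetal muscle programme, rose from 27.5% to 38.7% (limma adjusted p = 0.0872). None of the 28 CpGs at 11 of 13 genes of the neuromuscular junction was called (list median 0.676 points), and none of the 20 at 8 genes of the methylation machinery, such as the Dnmt and Tet enzymes (list median -3.53 points).

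Homeobox and T-box genes, which set position along the body and limbs, had 460 CpGs at 53 of 57 genes and low levels, and 3 were called (0.652%). The list median of 2.95 points was above that of all CpGs. Averaged over the list, perinatal libraries lay between 9.67% and 13.6% (median 11.1%) and weaning libraries between 11.9% and 15.8% (median 13.5%), so that the sides overlapped. Tbx4, the hindlimb T-box factor, rose at an untranslated exon from between 0.0% and 9.52% to between 15.2% and 46.4%, without overlap (21.9 ± 4.27 points, SE, limma adjusted p = 0.0418), and 21467 bp downstream of its start by 27.7 ± 6.11 points (SE, limma adjusted p = 0.0699, called in 11 of 17 fits without 1 library). An intronic CpG of Hoxc4 fell from between 20.0% and 58.3% (median 26.7%) to between 0.0% and 16.7% (median 0.0%), also without overlap (loss of 29.4 points, limma adjusted p = 0.0279).

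Imprinted loci, where the parental copies differ in methylation, had 2 called among 167 CpGs at 20 of 29 genes (1.2%, list median 1.68 points). An intronic CpG of Kcnq1 fell by 36.3 ± 6.67 points from 61.6% to 25.3% (SE, limma adjusted p = 0.0358). A CpG 4402 bp upstream of Cdkn1c, a cell cycle inhibitor expressed from the maternal copy in the same domain, rose by 21.0 ± 4.79 points from 23.9% to 44.9% (SE, limma adjusted p = 0.0644, called in 10 of 17 fits without 1 library). A region in the untranslated exon of Cdkn1c rose as well, from 39.2% to 63.5% (limma adjusted p = 0.0647).

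Lists for other cell types were counted in the same way. No CpG was called among the 69 at blood cell markers (median 0.719 points), the 54 at fibroblast and matrix markers (0.735), the 57 at adipocyte markers (0.77), the 70 at neural and Schwann markers (-1.12) or the 9 at liver markers (-2.85), although an intronic region of Afp, the fetal serum protein gene in the liver list, went from 66.3% to 49.1% (limma adjusted p = 0.0914). Among 38 CpGs at 10 of 13 endothelial and mural genes 2 were called (5.26%, median -2.01 points), both in an intron of Pecam1, an adhesion protein of endothelial cells. They fell by 31.5 ± 5.84 and 24.8 ± 6.03 points (SE, limma adjusted p = 0.0289 and 0.0931), and the sides overlapped at both. The second was called in 4 of the 17 fits that left out 1 library, and had a limma adjusted p of 0.165 without the 2 libraries with most missing values. Averaged over the endothelial list, perinatal libraries lay between 39.4% and 48.0% and weaning libraries between 31.2% and 49.3%. The ranges of the sides overlapped in the other lists too, at 27.2% to 33.9% and 27.7% to 35.8% for blood, 53.5% to 59.9% and 51.5% to 59.6% for fibroblasts, 32.3% to 36.9% and 31.7% to 36.5% for adipocytes, 36% to 41.2% and 34.1% to 38.8% for neural cells, and 44.6% to 53.4% and 34.5% to 47.5% for the 9 liver CpGs. The part of other cell types in the called changes was not tested.

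As a check of the tissue label, levels at muscle genes were set beside those of liver and heart at CpGs present in all 3 tables. Over all 28236 shared CpGs the means were 51.6% in muscle, 57.2% in liver and 53.9% in heart. There were 8 genes with shared CpGs, and some means rest on very few. Ckm (34.7% in muscle, 63.4% in liver, 6 CpGs), Mylpf (19.3% and 46.8%, 2 CpGs), Myog (11.3% and 39.3%, 1 CpG) and Acta1 (13.5% and 25.5%, 3 CpGs) were lower in muscle by more than all CpGs were. Ryr1 (64.5% and 68.8%, 12 CpGs) and Ttn (63.4% and 70.2%, 6 CpGs) differed by about as much as all CpGs. Actn3 (85.7% and 78.9%, 3 CpGs) and Pax7 (24.8% and 23.2%, 4 CpGs) were higher in muscle. In heart the first 4 stood at 33.4%, 18.3%, 17.9% and 16.2%, so the check does not separate muscle from heart. Neb, Tnnt3, Tnnc2, Tnni2, Myl1, Casq1, Myf5 and Myf6 had no CpG in the muscle table.

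Called CpGs lay more often inside genes than the CpGs tested. Introns held 206 of the 477 (43.2%) against 32.6% of all CpGs, exons 110 (23.1%) against 19.7%, intergenic sequence 130 (27.3%) against 37.4%, and promoters, the 1 kb upstream of a start, 31 (6.5%) against 10.2%. Of the losses 50% were intronic and 4.14% in promoters, whereas 34.6% of the gains were intronic, 29.4% exonic and 9.48% in promoters; no test was run on these shares. All 477 were autosomal, and none of the 265 tested CpGs of the X chromosome was called, where 1.04% of all CpGs tested were. A called region did lie on the X chromosome, in a promoter of Mid1, with a difference of -16.9 ± 5.07 points (SE, limma adjusted p = 0.0833). The median number of CpGs within 200 bp was 12 for gains and 9 for losses, against 11 for all CpGs tested.

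Short motifs were counted in the 100 bp on each side of a CpG, on both strands. The E-box CAGCTG, the form favoured by myogenic factors, stood near 19.4% of gains and 18.8% of losses, against 14.6% of all placed CpGs. The E-box CACCTG stood near 24.2% of gains and 13.5% of losses (18.9% of all), the AP-1 motif TGANTCA near 3.79% and 7.52% (4.55% of all), and the MEF2 motif (CTA and TAG with any 4 bases between) near 0.948% and 2.63% (1.8% of all). The NFI motif (TTGGC and GCCAA with any 5 bases between) stood near 1 loss and no gain (0.0152% of all).  A match marks the letters only, and no test was run on these shares.

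The libraries at P5 and P10 had no part in the calls. Because the CpGs were chosen for the distance between the sides, such libraries would lie between them, near the midpoint, also where nothing had changed, so their place is a description only. At P5 395 of the 477 CpGs had a mean between the perinatal and weaning means, and at P10 389 did. The median CpG had covered 44.7% of its change at P5 (quartiles 21.0% and 68.7%) and 55.7% at P10 (28.8% and 82.4%). Averaged over the gains, E18 libraries stood at 24% ± 3.41 (SD, n = 4) and P1 libraries at 25.4% ± 1.14 (n = 5). The level was 37.6% ± 2.48 at P5 (n = 3) and 39.6% ± 2.09 at P10 (n = 4), and 52.7% ± 1.23 and 51.9% ± 3.02 at P15 and P20 (n = 4 each). Over the losses they fell from 63.4% ± 1.8 and 59.0% ± 2.47 through 46.7% ± 3.95 and 43.1% ± 3.69 to 28.7% ± 5.02 and 29.6% ± 3.92 at the same ages. The P5 and P10 libraries overlapped each other in both sets, and every one of them lay between the ranges of the 2 sides. No test was run on these levels.

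**Figure D4:**
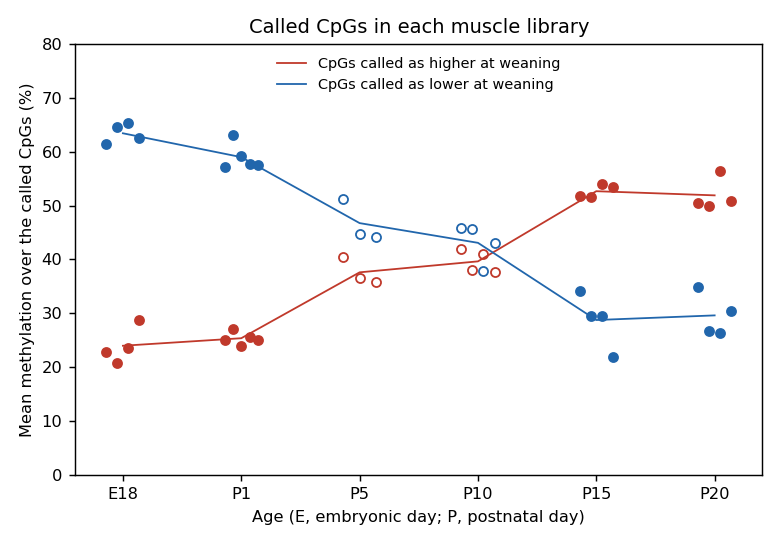
Mean methylation (%) over the 211 gaining (red) and 266 losing (blue) CpGs in each of the 24 muscle libraries by age, set to the same CpGs where values were missing, with lines through the age means. Filled points are the libraries that chose the CpGs and open points, at P5 and P10, are those that did not; the open points lie between the sides.

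At single CpGs the P5 and P10 levels spread widely. The Tmem140 CpG averaged 40.4% at P5 and 15.9% at P10, with a weaning mean of 12.6%, and the Map3k11 CpG averaged 58.3% at P5. At the Cpt1b CpG the 4 P10 libraries read 80%, 0.0%, 85.7% and 66.7%, so that a single library at 0.0% lowered its P10 mean to 58.1%. Differences between CpGs in timing were not tested.

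Liver changed far more over the same ages: 17829 of 70259 CpGs (25.4%) were called between 8 perinatal and 8 weaning libraries, 15055 of them as gains. Of the muscle calls 394 were also in the liver table, and their liver values were not used to choose them. Where muscle gained, liver rose by a median of 10.1 points (157 CpGs), and where muscle lost, liver rose by a median of 4.29 points (237 CpGs), against 6.33 points over all 33997 shared CpGs. Liver calls were made at 40.8% of the muscle gains and 34.6% of the muscle losses, against 26.5% of all shared CpGs. Of the 157 gains 59 (37.6%) gained in liver and 5 (3.18%) lost, and of the 237 losses 31 (13.1%) lost in liver and 51 (21.5%) gained. Of all shared CpGs 22.0% gained and 4.56% lost in liver, so the share of muscle losses that gained in liver was near the background. The 59 are 0.79% of the liver's 7469 gains at shared CpGs, and the 31 are 2.0% of its 1550 losses.

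The change in muscle was then tested against that in liver by an interaction term, which called 4755 of the 33997 shared CpGs (14%). Among the muscle losses 181 of 237 (76.4%) changed differently, all 181 lower in muscle, and among the gains 47 of 157 (29.9%), 46 of them higher in muscle. Of all 4755 calls 3857 were lower in muscle and 898 higher. The muscle values in this test also chose the CpGs, so these shares are a description. At the Coro7, Dnaja3 and Vasn CpG liver went from 88.4% to 95.1%, and the changes differed by -57.4 points (limma adjusted p = 0.000189). The first Pecam1 CpG, at position 106520928, rose in liver from 32.8% to 60.0% while it fell in muscle, a difference of -58.7 points (limma adjusted p = 0.000183). The Neurl3 CpG was at 44.8% and 31.4% in liver, a difference of 51.9 points (limma adjusted p = 0.0045). At others the tissues moved alike: the Cradd CpG fell in liver from 81.9% to 31% and the Hes1 CpG rose from 42.1% to 88.0%, both called in liver (limma adjusted p = 0.000704 and 0.00017), and the interaction was not called at either (limma adjusted p = 0.892 and 0.733).

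Heart was compared between P1 (4 libraries) and P15 with P20 (10 libraries), since E18 hearts are not analysed here, and 43 of 53286 CpGs (0.0807%) were called, 25 as higher at the later ages (0.0469%) and 18 as lower (0.0338%). Muscle over those ages gave 55 of 46081 (0.119%), 24 higher (0.0521%) and 31 lower (0.0673%). Of the muscle calls 356 had heart values. Where muscle gained, heart rose by a median of 10.0 points and was higher at the later ages at 130 of 155 CpGs (83.9%). Where muscle lost, heart fell by a median of 6.22 points and was higher at 54 of 201 (26.9%). Over all 31763 shared CpGs the median was 1.28 points and 56.4% were higher. In heart 2 of the 155 gains (1.29%) and 4 of the 201 losses (1.99%) were called, against 0.107% of all shared CpGs. The interaction of muscle and heart called none of 31761 CpGs (0%), with 1912 at an unadjusted limma p under 0.05. In heart the Tmem140 CpG went from 88.8% to 40.9% and the CpG near Hes1 from 23.2% to 60.6%, with limma adjusted p of 0.0491 and 0.124. The Coro7, Dnaja3 and Vasn CpG stood at 85.9% and 93.9% (limma adjusted p = 0.784), and its interaction with heart was not called (limma adjusted p = 0.28). Libraries of the 3 tissues may come from the same mice, which the tests treat as separate.

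**Figure D5:**
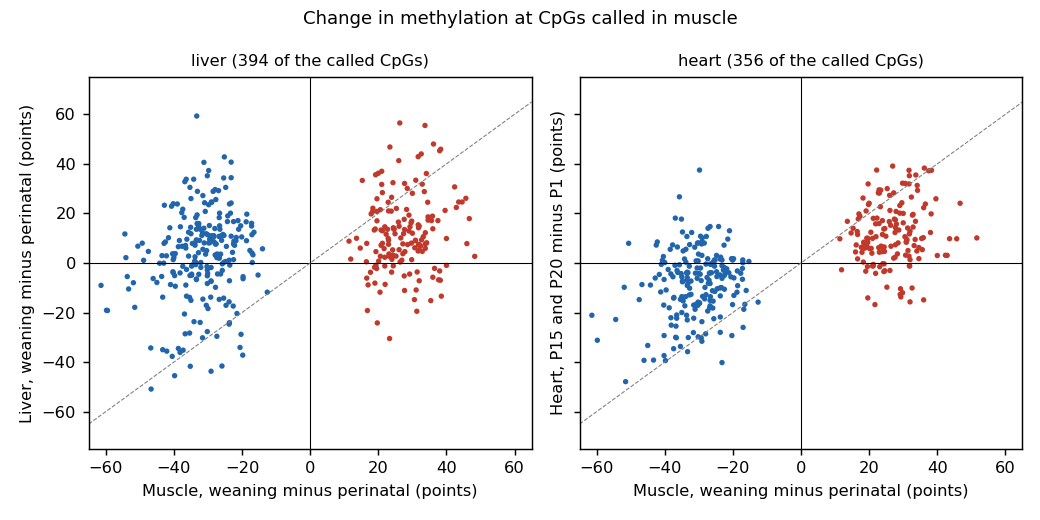
Change at CpGs called in muscle (x axis, weaning minus perinatal, percentage points) against the change at the same CpGs in liver (left, 394 CpGs) and in heart (right, 356 CpGs, P15 and P20 minus P1), with gains in muscle in red, losses in blue and a dashed line of equal change. In heart 130 of 155 gains lie above 0 and 54 of 201 losses do, while in liver many muscle losses lie above 0.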

How the data were processed

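The authors deposited a methylation fraction per CpG and library, the methylated share of its reads, which is shown here as percent. Per the labels and methods, reads were aligned to mm9 with Bismark 0.7.6 and Bowtie2, CpGs under 10 reads in a library were set to missing, and CpGs missing in over 20% of samples or under 10% methylated in all were removed. No muscle CpG breaks the last rules over the 24 libraries. Read counts were not used, so the depth of single values is unknown and no binomial interval is given. Values with few reads fall on coarse steps. The 9 heart columns of no listed sample were left out.

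Sides were compared per CpG by limma 3.58.1 in R 4.3.3 (lmFit, eBayes) with at least 4 values a side, or 3 for single ages and heart. A region's value is the mean deviation of its CpGs added to its level. SEs are limma's. Labels do not say whether replicates are separate litters, and pools for bisulfite treatment are not given per sample, so p-values measure the spread between these samples. Genes came from GENCODE on mm9. The code was tested on simulated data. The rule for the libraries used only tissue and age, but the libraries, lists and tests were chosen with earlier results of these data known. Named were the 10 largest gains and losses with 15 values, at most 1 per kb, the 5 regions with most calls, and every called CpG within 5 kb of a listed gene; 1 of the 10 gains is not reported here. Kcnq1ot1, Peg1 and Spi1 had no gene model of that symbol. Alternatives covered the test, scale (logit with an offset of 0.01), values needed, limits, libraries, weights, covariate, replicate block and the mm10 table.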

Additional observations from a re-analysis of the deposited data

Results flagged for a closer look

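Libraries far from the rest of their side were looked for in 80 groups of values by the gap to the nearest library, and 10 were found; chance alone gives about 1 in 20 groups. P20 replicate 5 read 56.5% at the Trio CpG, where the median of the other weaning libraries was 88.0%, and 78.3% in the Cacna1a region (others 53.2%). P20 replicate 3 read 92.3% at Mbnl1 (others 11.1%), and P20 replicate 2 read 16.7% at Hoxc4 (others 0.0%). On the perinatal side, P1 replicate 1 read 35.3% at Dusp8 (others 15.9%), P1 replicate 4 read 28.0% at the Tmem140 CpG (others 63.9%) and P1 replicate 5 read 71.4% at the first Pecam1 CpG (others 44.4%). E18 replicate 14 read 56.5% at Myh7b (others 26.9%). Missing values made up 51.7% of E18 replicate 15 (others 2.12%) and 52.7% of P20 replicate 2 (others 6.03%).

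Of 27 named CpGs with liver values, 18 changed differently in muscle and liver by the interaction term in limma (adjusted p of at most 0.1), where 14% of all shared CpGs did and 3857 of those 4755 were lower in muscle. The muscle change exceeded the liver change by 38.2 points near Phlda1, 51.9 in Neurl3 and 19.6 in the untranslated exon of Tbx4. It lay below the liver change at the others. The difference was -33.6 points in Tmem140, -57.4 in Coro7, Dnaja3 and Vasn, -57.3 in Camta1, -52.1 in Lrrn2, -42.9 in Mbnl1, -51.0 in Sec14l1, -45.0 in Nek7, -51.8 in Lama5 and -55.4 in Neurod6. Among the listed genes it was -58.7 and -55.4 at the Pecam1 CpGs, -37.0 in Ldb3, -42.7 in Cpt1b, -33.2 in Ttn and -31.2 in Myh7b. The muscle values also chose these CpGs.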

How the results depend on the processing

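The number of called CpGs depended on the processing. Between 472 and 477 of the 477 kept their direction in the alternatives where it was read. They were chosen for large differences in the same libraries, so their direction could hardly change and is a description only. Against 477 calls (211 gains and 266 losses), a linear model without moderation gave 188 (84 and 104), its Storey q-values 308 (140 and 168), logit values 35 (19 and 16), CpGs with a value in all libraries 69 (33 and 36, of 6740 tested), and the share of missing values as a covariate 279 (137 and 142). E18 against P20 gave 0 (0 and 0) and P1 against P15 11 (5 and 6), with fewer libraries. Leaving out 1 library gave 278 to 446 calls, 119 to 192 gains and 150 to 269 losses. Total calls moved by over 1.5 times without E18 replicate 9 (278), P1 replicate 5 (306) and P20 replicate 1 (309). Gains also did without E18 replicate 14 (130) and P1 replicate 4 (138), and losses without P15 replicate 4 (172). Array weights gave 533 (267 and 266). The replicate block gave 21 calls (6 and 15) and 78 regions. E18 replicates 9, 14 and 15 have numbers that no other library of the comparison has. Each stood alone in its block and added nothing to the contrast between sides, so this fit rested on fewer libraries. Of 10 same-number pairs across sides none correlated over 0.1 (-0.122 to 0.0292), and of 62 pairs with other numbers 3 did (-0.105 to 0.13). The ranges overlap, and the labels do not say what the numbers stand for. Whether they mark a shared litter or pool was not tested. Regions of at least 2 CpGs gave 394 calls of 10900 tested, against 245 of 4926, and leaving out 1 library gave 176 to 266.

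P15 against P20 gave 1 call without moderation and 1 in a fit of all 24 libraries. Against 4755 of 33997 CpGs, the liver interaction gave 2764 on logit values and 4165 to 4784 without 1 library. With complete values it gave 420 of only 2168 tested. The interaction with heart gave 1 on logit values and 0 to 1 without 1 library. Mean methylation differed by -2.12 points over all CpGs (exact permutation p = 0.277), and by -0.0845 to 0.566 without 1 library. The middle share differed by 2.72 points without the 2 libraries with most missing values (exact permutation p = 0.0322), an alternative chosen after seeing the data, and by 1.68 to 2.56 without 1 library, with exact permutation p of 0.0284 without E18 replicate 9, 0.0302 without P15 replicate 4, 0.0312 without P20 replicate 2 and 0.0438 without P1 replicate 2. The shares at 0% or 100% and missing ranged from -0.568 to 2.40 and from -1.06 to 9.74.

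Of the 36 named CpGs and regions none changed sign. The call was lost at 27 on logit values, 26 with the block, 12 with the covariate, 9 without the 2 libraries, and 4 to 11 without 1 library. The 5 regions with most called CpGs kept their calls in all of these. The single CpGs that kept theirs were those of Phlda1, Tmem140, Coro7, Dnaja3 and Vasn, and Hoxc4 on logit values, and those of Arhgap23, Nnmt, Tmem140, Cradd and Sec14l1 with the block. Read depth per value was not used, so its part in these changes was not tested; the cause of the changes in counts was not tested.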
